A study of Mus musculus with 18 samples.

Results

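The genes described here are the outputs and accessory loops of the circadian clock: Dbp, Tef, Hlf, Nfil3, Ciart, Bhlhe40, Bhlhe41, Rora and Usp2. They were chosen by symbol, and all 9 were found among the 28030 mouse gene identifiers of the deposited table. Hepatocytes were isolated with digitonin from the pericentral side (PC, around the central vein) or the periportal side (PP, around the portal vein) of the liver lobule of WT C57BL/6J males aged 12 weeks and kept on normal chow. All mice had been trained for 3 days to fast for 16 h overnight and feed for 8 h by day. The fed group was killed at clock hour 13, after 4 h with food and 20% sucrose in the drinking water. The 8 h group lost food and sucrose at that hour and was killed at clock hour 21, and the 24 h group was killed at clock hour 13 of the next day. Each of the 6 groups of zone and state held 3 libraries. The labels do not say whether a library is 1 mouse or whether zones came from the same mouse, so the p-values measure the spread between these libraries.

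In the circadian clock, BMAL1 with CLOCK or NPAS2 activates genes through E-box sequences, and the products of some of these genes shut the activators down. DBP, TEF and HLF are the PAR bZIP factors, which bind D-box sequences and pass the rhythm on to liver genes of detoxification and lipid use, while NFIL3 represses through the same D-box. CIART, BHLHE40 and BHLHE41 repress at E-boxes, and RORA activates at ROR elements, where the REV-ERB proteins repress. USP2 is a deubiquitinase with a strong daily rhythm in liver.

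Promoter windows from RefSeq (GRCm38.p6, from 250 bases before to 50 after an annotated start site) were found for 8 of the 9 genes, all but Bhlhe40. They are shown because 3 of the genes, Ciart, Tef and Bhlhe41, hold the E-box CACGTG, which 7.15% of the 32851 mouse windows of this length hold on either strand. Ciart holds it at 3 places, starting 116, 58 and 44 bases before its start site, which 0.088% of windows match with 3 or more. The sequences below run 5′ to 3′ on the strand of the gene, with each motif in capitals, and the Ciart stretch (chr3:95882252-95882478, minus strand) is the part of its window upstream of the annotated exons.
Ciart: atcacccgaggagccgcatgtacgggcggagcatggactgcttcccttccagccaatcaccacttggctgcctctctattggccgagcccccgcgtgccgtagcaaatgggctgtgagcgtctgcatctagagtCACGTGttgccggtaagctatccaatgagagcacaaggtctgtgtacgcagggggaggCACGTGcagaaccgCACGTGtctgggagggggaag
Tef: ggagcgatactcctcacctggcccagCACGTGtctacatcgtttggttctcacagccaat
Bhlhe41: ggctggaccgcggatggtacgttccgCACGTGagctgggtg
The Tef stretch lies at chr15:81811250-81811309 (plus strand), in the second of its 2 windows, and the Bhlhe41 stretch at chr6:145865559-145865599 (minus strand). The first Tef window holds another E-box, inside an annotated exon.

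Hlf and Nfil3 held other searched motifs, shown with the motif in capitals. Hlf carries the cAMP response element TGACGTCA (1.79% of windows) in chr11:90390918-90390952, minus strand. Nfil3 carries the ROR element TAGGTCA, here read on the opposite strand (2.61% of windows), in chr13:52981035-52981061, minus strand. The Nfil3 match lies inside an annotated exon.
Hlf: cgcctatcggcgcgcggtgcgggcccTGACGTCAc
Nfil3: cgctcggaacTGACCTActaacacaca
The D-box spellings TTATGTAA, TTACGTAA and TTATGCAA were searched on both strands, and 0 of the 9 windows of these genes held them. The windows of Dbp, Rora and Usp2 held none of the searched letters. The Usp2 window covers only a start site at chr9:44084920, inside the annotated gene, which begins at 44067021. The last 50 bases of the Usp2 and Hlf windows were not found in any annotated transcript of their gene. These matches describe the letters in the windows and were not tested for binding.

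Library totals ran from 18359911 to 26384358 estimated counts. Summed over 6 hepatocyte markers (such as Alb and Ttr) the level was 59000 to 191000 CPM (counts scaled to a common library size, with no correction for gene length) in every library. Markers of other liver cells were low, with sums of at most 29.5 CPM for 6 sinusoidal endothelial markers, 18 CPM for 6 Kupffer cell and leukocyte markers and 15.1 CPM for 6 stellate cell and fibroblast markers. The cholangiocyte list of 5 summed to 19.3 to 56.7 CPM, and its members differed. Epcam was at 0 in all 18 libraries and Krt19 at most at 0.506 CPM. Krt7 (11.1 to 20.2 CPM), Spp1 (5.39 to 25.1 CPM) and Sox9 (2.42 to 17.4 CPM) were present in every library. The library labelled pericentral 24 h replicate 2 stood apart, with 111 CPM of the pericentral marker Glul against 928 and 707 CPM in its group, and 215 CPM of the periportal marker Sds against 101 and 94.8 CPM. Periportal 8 h replicate 1 had the highest Fos, Jun, Junb, Egr1 and Ier2 of all libraries, and 222 CPM of Sds against 629 and 710 CPM in its group. Periportal 8 h replicate 3 had the highest Pecam1, Stab2, Clec4g, Kdr and Oit3, which are endothelial markers. Where leaving out pericentral 24 h replicate 2 changed a call of the genes described here, or moved a called value by more than 1.5 times, the value without it is given too.

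Between fed and 8 h, most of these genes changed alike in both zones. Dbp, Tef, Hlf, Ciart and Bhlhe40 fell, and Nfil3 rose, in pericentral and in periportal hepatocytes. A gene was called when the quasi-likelihood test of edgeR gave a Benjamini-Hochberg adjusted p under 0.05 over the 12477 genes tested, among which were all 9. In pericentral hepatocytes 6 of 9 were called (13.8% of all genes), 1 higher (7.27% of all genes) and 5 lower (6.57% of all genes). In periportal hepatocytes 6 of 9 were called too (14.4% of all genes), 1 higher (7.56% of all genes) and 5 lower (6.85% of all genes). The median log2 fold change of the 9 genes was -1.03 and -1.08, against 0.01 over all genes tested in each zone. Fasting and the later clock hour came together in the 8 h groups and cannot be told apart. At 24 h, back at the clock hour of the fed groups, 3 genes differed from fed in pericentral hepatocytes (21.8% of all genes), 2 higher (10.8% of all genes) and 1 lower (11.1% of all genes). In periportal hepatocytes 2 differed (19.6% of all genes), 1 higher (9.59% of all genes) and 1 lower (10% of all genes), a count near the background. Nfil3 stayed above and Bhlhe40 below its fed level in both zones, and Rora was above it in pericentral hepatocytes. The libraries of fed and 8 h mice did not overlap for 8 genes in pericentral (32.2% of all genes) and 7 in periportal hepatocytes (31.6% of all genes). Fed and 24 h libraries did not overlap for 5 (38.7% of all genes) and 4 genes (36.9% of all genes).

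**Figure D1:**
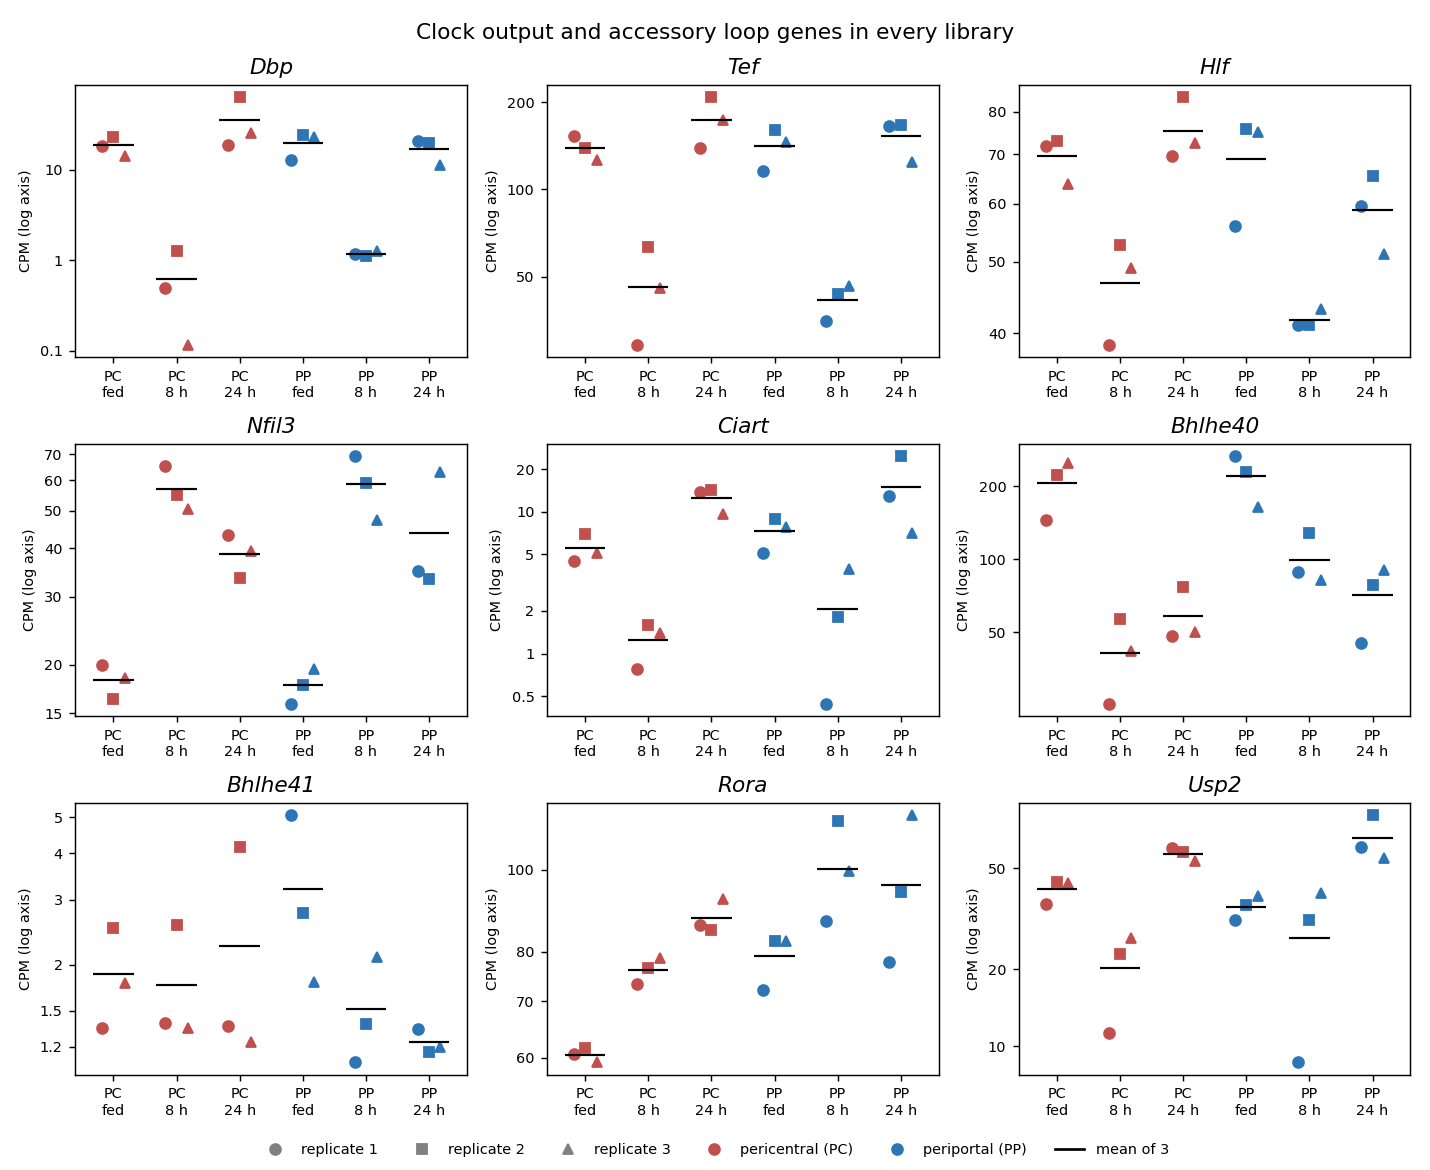
CPM of each of the 9 genes (log axis, 1 panel per gene) in all 18 libraries, by zone and feeding state; symbols are single libraries and black bars the mean of 3. Dbp, Tef and Hlf are lowest at 8 h in both zones, whereas Nfil3 is lowest and Bhlhe40 highest in the fed libraries.

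Dbp (ENSMUSG00000059824, GRCm38 chr7:45705088-45710203, plus strand), the PAR bZIP gene with the widest daily swing, had the largest changes of the 9 genes at 8 h against fed and from 8 h to 24 h, but not at 24 h against fed. In fed libraries it was at 18.5, 23.2 and 14.3 CPM in pericentral and 12.8, 24.0 and 23.0 CPM in periportal hepatocytes. After 8 h without food, Dbp had dropped to 0.492, 1.26 and 0.116 CPM in pericentral and to 1.17, 1.11 and 1.26 CPM in periportal libraries. The 24 h libraries had 18.6, 63.5 and 25.7 CPM in pericentral and 20.6, 19.7 and 11.3 CPM. Every 8 h library was thus far below every fed and every 24 h library, while fed and 24 h libraries overlapped in both zones. The 8 h values rest on few reads, 3 to 29 estimated counts per library, against 246 to 1727 in the other libraries. The protein-coding gene Sphk2, on the opposite strand, overlaps 539 of the 2993 exonic bases of Dbp, and whether strand was used in counting is not given. Dbp fell 31.2-fold at 8 h in pericentral (log2 fold change -4.96, SE 0.62, edgeR adjusted p 0.000142) and 16.9-fold in periportal hepatocytes (-4.08, SE 0.57, adjusted p 0.000384). These were the 11th and 30th largest falls of all genes tested. Without pericentral 8 h replicate 2, the highest of its group, the pericentral change was -5.93 (edgeR adjusted p 0.000383). Between 8 h and 24 h its log2 level went up by 5.91 in pericentral (SE 0.63, edgeR adjusted p 0.000142) and by 3.86 in periportal hepatocytes (SE 0.57, edgeR adjusted p 0.00172). The pericentral rise was 6.86 without pericentral 8 h replicate 2 and 5.21 without the library with low Glul, and was called in both cases (edgeR adjusted p 0.000453 and 0.000119). Against fed, the 24 h level differed by 0.95 in pericentral (95% confidence interval -0.01 to 1.90, edgeR adjusted p 0.15) and by -0.22 in periportal hepatocytes (-1.18 to 0.75, adjusted p 0.789). The pericentral difference was 0.24 without replicate 2 of that group, the library with low Glul.

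Tef (ENSMUSG00000022389, chr15:81802421-81826863, plus strand), the second PAR bZIP gene, followed the same course over a narrower range. Its fed levels were 153, 139 and 126 CPM in pericentral and 116, 161 and 146 CPM in periportal libraries. The 8 h libraries had 29.1, 63.3 and 45.6 CPM of Tef in pericentral and 35.0, 43.6 and 46.4 CPM in periportal hepatocytes. Those of 24 h had 139, 208 and 174 CPM in pericentral and 166, 167 and 124 CPM. The 8 h libraries did not overlap with the others in either zone. Tef fell by 1.60 (SE 0.23, edgeR adjusted p 0.000273) in pericentral and by 1.76 (SE 0.23, adjusted p 0.000169) in periportal hepatocytes on the log2 scale, about 3.03-fold and 3.38-fold. It rose again from 8 h to 24 h by 1.92 and 1.87 (edgeR adjusted p 0.000239 and 0.000393). The 24 h level differed from fed by 0.32 (95% interval -0.16 to 0.80) and 0.11 (-0.37 to 0.59), without a call in either zone.

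Hlf (ENSMUSG00000003949, chr11:90336536-90390895, minus strand), the third PAR bZIP gene, moved least of them. Fed libraries had 71.8, 73.1 and 63.8 CPM in pericentral and 56.0, 75.9 and 75.2 CPM in periportal hepatocytes. The 8 h values of Hlf were 38.6, 52.7 and 49.1 CPM in pericentral and 41.0, 41.1 and 43.1 CPM. At 24 h its levels were 69.7, 83.7 and 72.5 CPM and 59.5, 65.5 and 51.3 CPM. The lowest fed library still exceeded the highest 8 h library in each zone. The fall at 8 h was 1.49-fold in pericentral (log2 fold change -0.57, SE 0.13, edgeR adjusted p 0.00809) and 1.65-fold in periportal hepatocytes (-0.73, SE 0.13, adjusted p 0.00177). The rise from 8 h to 24 h was 0.69 in pericentral (SE 0.13, edgeR adjusted p 0.00486) and 0.49 in periportal hepatocytes (SE 0.13, edgeR adjusted p 0.0351). The periportal rise of Hlf lost its call when the 20 most abundant genes were left out of the scaling (0.48) and without any 1 of 5 libraries, periportal 8 h replicates 1, 2 and 3 and 24 h replicates 1 and 2 (0.41 to 0.52). At 24 h Hlf differed from fed by 0.11 and -0.23 without a call.

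Nfil3 (ENSMUSG00000056749, chr13:52967209-52981073, minus strand), the D-box repressor, ran the other way. Its fed levels were the lowest, at 20.0, 16.3 and 18.5 CPM in pericentral and 15.9, 17.7 and 19.5 CPM in periportal libraries. At 8 h Nfil3 reached 65.2, 55.0 and 50.5 CPM and 69.3, 59.2 and 47.5 CPM. Its 24 h levels were 43.4, 33.5 and 39.4 CPM in pericentral and 35.0, 33.3 and 63.2 CPM. No fasted library of either zone fell into the fed range. The rise at 8 h was 3.11-fold in pericentral (log2 fold change 1.64, SE 0.21, edgeR adjusted p 0.000108) and 3.31-fold in periportal hepatocytes (1.73, SE 0.21, adjusted p 7.72e-05). The 24 h level was still 2.12-fold (1.08, SE 0.21, edgeR adjusted p 0.00175) and 2.47-fold (1.31, SE 0.21, adjusted p 0.000535) above fed, at the same clock hour. Between 8 h and 24 h Nfil3 differed by -0.55 and -0.42, not called in either zone (edgeR adjusted p 0.107 and 0.243). Without periportal 24 h replicate 3, at 63.2 CPM, both differences were called. The periportal one was then -0.78 (edgeR adjusted p 0.0144). The pericentral one stayed at -0.55 (edgeR adjusted p 0.0243), since that library is in neither pericentral group and enters there only through the fit shared by all 18 libraries.

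Because Tef and Nfil3 bind the same sequence with opposite effect, the ratio of their CPM was followed as a description. CPM is not scaled by gene length, so only the change of this ratio can be read. It was 7.63, 8.51 and 6.79 in pericentral and 7.27, 9.09 and 7.47 in periportal fed libraries. At 8 h the ratio was 0.447, 1.15 and 0.903 and 0.506, 0.736 and 0.977. At 24 h it was 3.21, 6.21 and 4.42 and 4.74, 5.01 and 1.96. For Tef, the 24 h libraries of both zones thus lay between the fed and 8 h ranges without touching either. This did not hold for Dbp or Hlf set against Nfil3. In pericentral 24 h replicate 2, Dbp was at 63.5 and Nfil3 at 33.5 CPM, a ratio above every fed library. In periportal 24 h replicate 3, Hlf was at 51.3 and Nfil3 at 63.2 CPM, a ratio within the 8 h range.

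Ciart (ENSMUSG00000038550, chr3:95878503-95882251, minus strand), the E-box repressor whose promoter is printed above, was a gene of low level. In fed libraries Ciart was at 4.49, 7.01 and 5.14 CPM in pericentral and 5.12, 8.87 and 7.82 CPM in periportal hepatocytes. Libraries of 8 h had 0.778, 1.58 and 1.39 CPM in pericentral and 0.444, 1.82 and 3.96 CPM in periportal hepatocytes. Those of 24 h had 13.8, 14.2 and 9.59 CPM in pericentral and 12.9, 24.7 and 7.08 CPM. The 8 h libraries were below all others of their zone, but the periportal ones spread 8.92-fold from lowest to highest. Ciart fell by 2.15 (SE 0.59, edgeR adjusted p 0.0251) in pericentral and by 1.83 (SE 0.56, adjusted p 0.0414) in periportal hepatocytes on the log2 scale. The rise from 8 h to 24 h was 3.33 in pericentral (SE 0.59, edgeR adjusted p 0.0036) and 2.86 in periportal hepatocytes (SE 0.56, edgeR adjusted p 0.00845). The periportal rise was 3.73 without periportal 8 h replicate 3 and 2.27 without periportal 24 h replicate 2 (edgeR adjusted p 0.00376 and 0.0413), and it lost its call when only the groups compared were fitted (2.87, edgeR adjusted p 0.154). Both falls lie close to the threshold. The pericentral fall lost its call under limma-voom (-2.17), without a filter on low counts (-2.15) and without fed replicates 2 and 3 or any 1 of the 3 pericentral 8 h libraries (-2.33 to -1.90). The periportal fall lost it without a filter, with only the groups compared, and when 1 of 13 libraries was left out (-2.03 to -1.33). Without periportal 8 h replicate 3, the highest of its group, the fall was larger (-2.70, edgeR adjusted p 0.0109). The 5 libraries whose removal kept the call were pericentral 8 h replicate 1, periportal 8 h replicate 3, pericentral 24 h replicate 3 and periportal 24 h replicates 2 and 3. At 24 h Ciart exceeded fed by 1.18 (95% interval 0.09 to 2.27, edgeR adjusted p 0.118) and 1.04 (-0.04 to 2.12, adjusted p 0.174), with no overlap between pericentral libraries and no call in either zone. The pericentral excess was called with only the groups compared (1.17, edgeR adjusted p 0.00482) and without periportal 8 h replicate 1 (1.17, adjusted p 0.0496).

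Bhlhe40 (ENSMUSG00000030103, chr6:108660629-108666925, plus strand), which encodes the repressor also called DEC1, was highest in the fed state and remained low at 24 h. Its fed levels were 146, 223 and 249 CPM in pericentral and 267, 230 and 165 CPM in periportal libraries. Pericentral libraries had 25.4, 56.6 and 41.7 CPM at 8 h and periportal ones 89.1, 128 and 82.3 CPM. The 24 h libraries had 48.1, 77.2 and 49.9 CPM in pericentral and 45.0, 78.7 and 90.3 CPM. All fasted libraries were below all fed libraries of both zones. The fall at 8 h was 5.00-fold in pericentral (log2 fold change -2.32, SE 0.34, edgeR adjusted p 0.000422) and 2.21-fold in periportal hepatocytes (-1.14, SE 0.33, adjusted p 0.0317). The fall at 24 h was 3.53-fold (-1.82, SE 0.34, edgeR adjusted p 0.00161) and 3.09-fold (-1.63, SE 0.34, adjusted p 0.00374). From 8 h to 24 h Bhlhe40 differed by 0.51 and -0.48 without a call. The periportal fall at 8 h lost its call without a filter on low counts (-1.14) and without periportal fed replicate 1 or 2 or 8 h replicate 1 or 3 (-1.11 to -0.98).

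Bhlhe41 (ENSMUSG00000030256, chr6:145858243-145865558, minus strand), which encodes the related repressor DEC2, was low in every library, with 24 to 123 estimated counts. A gene on the opposite strand overlaps 1280 of its 6720 exonic bases. Pericentral levels were 1.35, 2.52 and 1.79 CPM when fed, then 1.39, 2.56 and 1.35 CPM after 8 h of fasting and 1.37, 4.15 and 1.24 CPM after 24 h. Periportal levels were 5.08, 2.76 and 1.80 CPM when fed, then 1.09, 1.38 and 2.10 CPM after 8 h and 1.34, 1.16 and 1.2 CPM after 24 h. The 3 pericentral groups overlapped, and the highest 24 h value, 4.15 CPM, was in the library with low Glul. In periportal hepatocytes the 24 h libraries did not overlap with the fed ones. That difference was -1.38 (95% interval -2.38 to -0.37) with an edgeR adjusted p of 0.0524. It was called by DESeq2 (-1.37, adjusted p 0.0282) and under 8 other alternatives, 4 of them leaving out a library: periportal fed replicate 3 (-1.67) or any 1 of the pericentral 24 h libraries (-1.38).

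**Figure D2:**
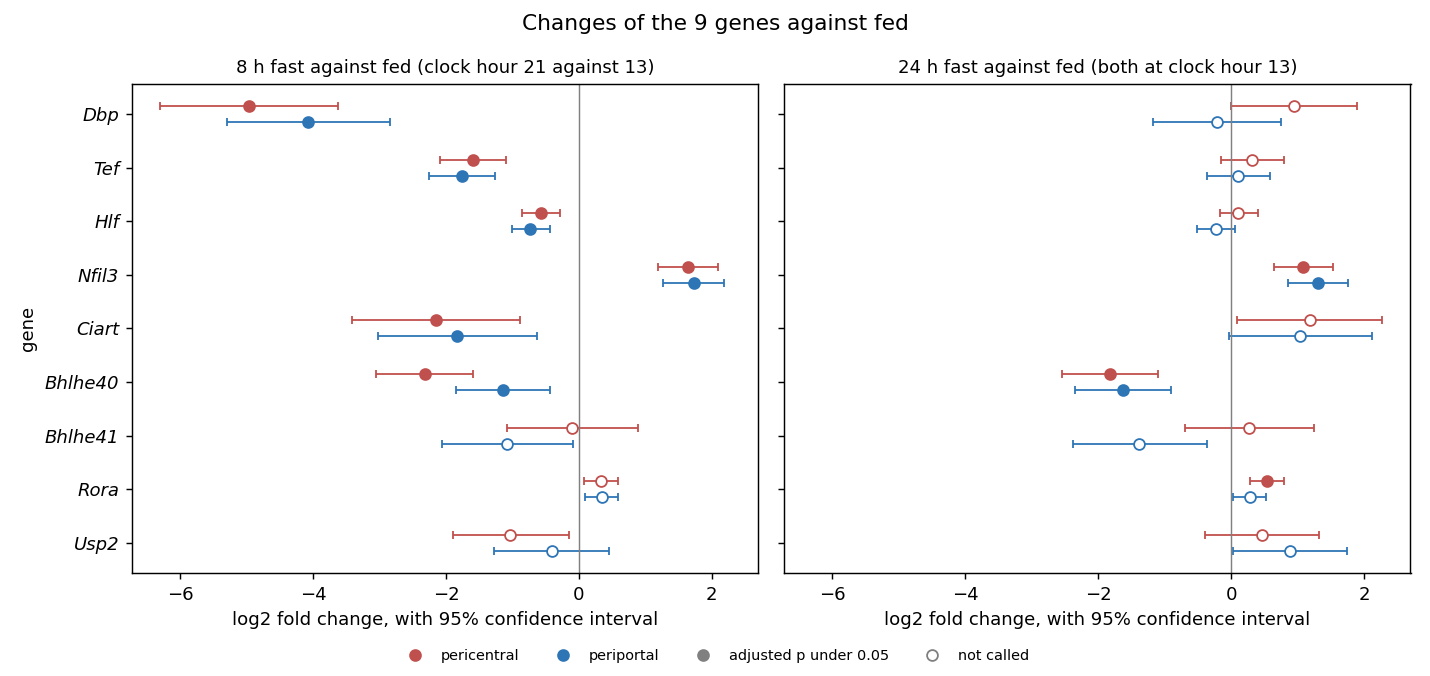
Log2 fold change against fed at 8 h (left) and 24 h (right), with 95% confidence intervals from edgeR, for pericentral and periportal hepatocytes; filled points have an adjusted p under 0.05. At 8 h, 6 genes are called in each zone, and at 24 h Nfil3 and Bhlhe40 are called in both zones and Rora in pericentral hepatocytes.

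Rora (ENSMUSG00000032238, chr9:68653786-69388246, plus strand), the activator at ROR elements, had small changes. Its pericentral levels were 60.6, 61.6 and 59.3 CPM when fed, then 73.3, 76.5 and 78.6 CPM after 8 h of fasting and 86.1, 84.9 and 92.3 CPM after 24 h. These 3 ranges did not overlap. In periportal hepatocytes they were 72.2, 82.4 and 82.5 CPM when fed, then 86.9, 114 and 99.6 CPM after 8 h and 77.9, 94.0 and 116 CPM after 24 h. In pericentral hepatocytes Rora was 1.45-fold higher at 24 h than when fed (log2 fold change 0.54, SE 0.12, edgeR adjusted p 0.00441). At 8 h the differences of 0.33 and 0.34 in the zones had edgeR adjusted p of 0.0802 and 0.0693. With only the groups compared, and when the 20 most abundant genes were left out of the scaling, the pericentral one was called (0.34 and 0.36, edgeR adjusted p 0.0389 and 0.0343). Leaving out periportal 24 h replicate 1 or 3 brought both of these under the threshold (adjusted p 0.0438 and 0.0403 in pericentral, 0.0362 and 0.0332 in periportal hepatocytes). The periportal one was also called without periportal 8 h replicate 1 (0.44, edgeR adjusted p 0.0324). Rora at 24 h in periportal hepatocytes differed from fed by 0.28 (edgeR adjusted p 0.118), and by 0.41 without periportal 24 h replicate 1 (adjusted p 0.0223).

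Usp2 (ENSMUSG00000032010, chr9:44067021-44095627, plus strand), the deubiquitinase, had values of 36.2, 44.1 and 43.6 CPM in pericentral and 31.2, 35.9 and 38.7 CPM in periportal fed libraries. The 8 h libraries had 11.3, 23.0 and 26.5 CPM in pericentral and 8.64, 31.3 and 39.8 CPM in periportal hepatocytes. At 24 h Usp2 had 60.1, 57.8 and 53.1 CPM in pericentral and 60.4, 80.8 and 54.9 CPM. The 24 h libraries were the highest of each zone and overlapped with no other group, while the periportal 8 h libraries spread 4.6-fold and reached above the fed ones. From 8 h to 24 h Usp2 rose by 1.49 in pericentral hepatocytes (SE 0.41, edgeR adjusted p 0.0351). This call was lost without a filter on low counts (1.48) and without any 1 of pericentral 8 h replicates 1 and 2 and 24 h replicates 1, 2 and 3 (1.19 to 1.57). In periportal hepatocytes the difference was 1.30 (SE 0.41, edgeR adjusted p 0.0688). It was called by DESeq2 (1.30, adjusted p 0.0242), by limma-voom (1.57, adjusted p 0.0246), and without periportal 8 h replicate 3 (1.71, edgeR adjusted p 0.0444). Against fed, Usp2 differed by -1.03 and -0.41 at 8 h and by 0.47 and 0.89 at 24 h, none called. Without periportal 8 h replicate 1 the -1.02 in pericentral hepatocytes at 8 h and the 0.89 in periportal ones at 24 h were called (edgeR adjusted p 0.00844 and 0.0143). With only the groups compared, both 24 h differences were called (0.46 and 0.90, edgeR adjusted p 0.017 and 0.00441).

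From 8 h to 24 h, 5 of the 9 genes were called in pericentral hepatocytes (9.71% of all genes), all 5 higher (5.2% of all genes): Dbp, Tef, Hlf, Ciart and Usp2. In periportal hepatocytes 4 were called (7.46% of all genes), all 4 higher (3.22% of all genes): Dbp, Tef, Hlf and Ciart. Called lower by edgeR were 0 in either zone (4.51% and 4.24% of all genes). The libraries of 8 h and 24 h did not overlap for 7 genes in pericentral (28.9% of all genes) and 5 in periportal hepatocytes (25.4% of all genes). The pericentral count was 4 (731 of 12733 genes tested) without the library with low Glul, where Usp2 was not called. The comparisons of 8 h and 24 h with fed share the fed libraries, and each comparison with 8 h shares the 8 h libraries.

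Whether zone mattered was asked within each state. In fed mice 0 of the 9 genes were called between the zones by edgeR (8.01% of all genes, 3.89% higher and 4.13% lower in periportal hepatocytes). Of the 9, 1 had an unadjusted p under 0.05 (2615 of 12477 genes). DESeq2 called 1 (1315 of all genes) and limma-voom 0 (1050). At 24 h edgeR called 0 (4.17% of all genes, 1.7% higher and 2.47% lower). There 2 of the 9 had an unadjusted p under 0.05 (2098 of all genes). DESeq2 and limma-voom called 0 of the 9 at 24 h (821 and 484 of all genes). At 8 h 1 gene was called (7.14% of all genes), Bhlhe40, higher in periportal hepatocytes (3.72% of all genes were), and 0 were called lower (3.42% of all genes). Bhlhe40 had 89.1, 128 and 82.3 CPM in periportal against 25.4, 56.6 and 41.7 CPM in pericentral libraries. This was a 2.42-fold periportal excess (log2 fold change 1.28, SE 0.33, edgeR adjusted p 0.0318). It lost its call without a filter on low counts (1.28), with only the groups compared (1.28), and without pericentral 8 h replicate 1 (1.02) or 3 (1.28) or periportal 8 h replicate 2 (1.06) or 3 (1.40). The difference between the zones in the change of Bhlhe40 from fed to 8 h was 1.18 (95% interval 0.18 to 2.18, edgeR p 0.0235 before adjustment, adjusted p 0.909). A zone difference in the fall of this gene was therefore not resolved. The 7 immediate early genes, such as Fos and Egr1, summed to 168 to 511 CPM in periportal and 106 to 222 CPM in pericentral 8 h libraries. Fos and Egr1 were highest in periportal 8 h replicate 1 (82.7 and 126 CPM). The part of the immediate early genes in the Bhlhe40 difference was not tested.

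Rora lay higher on the periportal side by 0.39 in fed mice (edgeR adjusted p 0.0609) and by 0.39 at 8 h (adjusted p 0.0585), with no overlap between the zones in either state. At 24 h the difference was 0.13 and the libraries overlapped. Libraries of the zones did not overlap for 1 of the 9 genes when fed (28.3% of all genes), 2 at 8 h (23.9% of all genes) and 1, Hlf, at 24 h (22.1% of all genes). The fed difference of Rora was called by DESeq2 (0.38, adjusted p 0.0434), with only the groups compared (0.39, edgeR adjusted p 0.0299), when the 20 most abundant genes were left out of the scaling (0.40, edgeR adjusted p 0.0263), and without periportal 24 h replicate 1 or 3 (edgeR adjusted p 0.0302 and 0.0278). The 8 h difference was called by DESeq2 (0.40, adjusted p 0.0321), and without periportal 24 h replicate 1 or 3 or periportal 8 h replicate 1 (edgeR adjusted p 0.0292, 0.0265 and 0.0261). Averaged over the 3 states, a comparison chosen after the data were seen, Rora was the gene called among the 9 (0.30, SE 0.07, edgeR adjusted p 0.00476), where 20.3% of all genes were. Bhlhe40 averaged 0.55 (SE 0.19, edgeR adjusted p 0.053), and the other 7 genes lay between -0.18 and 0.45. Markers of other liver cells were also higher in periportal fed libraries: the 6 sinusoidal endothelial markers summed to 8.59 to 10.4 CPM there and to 2.97 to 4.96 CPM in pericentral ones. At 8 h their sums overlapped (3.63 to 29.5 and 4.37 to 9.54 CPM). The 6 hepatocyte markers summed to 113000 to 191000 CPM in periportal and 59000 to 99600 CPM in pericentral libraries. Most of this sum was Alb (40000 to 160000 CPM over the 18 libraries), and each other marker of the list was at most 11400 CPM. The sum therefore mainly follows Alb and is no measure of hepatocyte content. The part of these markers in the Rora difference was not tested. In these bulk samples, a different share of cells expressing a gene and a different amount of its RNA per cell cannot be told apart.

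For the changes between states, the difference between the zones was called for 0 of the 9 genes by edgeR from fed to 8 h (0% of all genes), from fed to 24 h (0.016% of all genes) and from 8 h to 24 h (0% of all genes). DESeq2 and limma-voom called 0 of the 9 too, where DESeq2 called 6, 38 and 3 of all genes and limma-voom 0 in each comparison. Each comparison had 1 of the 9 at an unadjusted p under 0.05. From fed to 8 h this was Bhlhe40, given above. From fed to 24 h it was Bhlhe41 (-1.65, 95% interval -3.05 to -0.25, edgeR p 0.0239 before adjustment). From 8 h to 24 h it was Dbp (-2.05, 95% interval -3.96 to -0.14, edgeR p 0.0372 before adjustment). Without the library with low Glul the Bhlhe41 and Dbp values were -0.85 and -1.35. From fed to 8 h the zone difference was 0.01 (95% interval -0.35 to 0.37) for Rora, -0.16 (95% interval -0.85 to 0.53) for Tef, -0.15 (-0.55 to 0.24) for Hlf and 0.09 (-0.54 to 0.71) for Nfil3. For Dbp it was 0.89 (-1.03 to 2.80).

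The order of the levels among the groups can be read from these calls. For Dbp, Tef, Hlf and Ciart, both 8 h groups were lowest, and fed and 24 h groups were not separated by a call within a zone. For Nfil3 the fed groups were lowest, and the 8 h and 24 h groups above them were not separated. For Bhlhe40 the fed groups were highest, and the 8 h and 24 h groups were not separated within a zone. Rora was lowest in fed pericentral and highest in 8 h periportal libraries by mean (60.5 ± 1.11 and 100 ± 13.4 CPM, SD, n = 3). For Usp2 the 8 h groups had the lowest means (20.3 ± 7.95 CPM pericentral and 26.6 ± 16.1 CPM periportal, SD, n = 3), and the pericentral one was separated by a call from 24 h. For Bhlhe41 no neighbours in the order were separated.

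Libraries of the same group differed from each other, and several of the 9 genes varied together. After the mean of its group was subtracted from each log2 CPM value, Ciart and Usp2 correlated with r = 0.90 over the 18 libraries, and Tef and Hlf with r = 0.87. Nfil3 ran against Ciart (r = -0.69), Usp2 (-0.54), Tef (-0.53), Bhlhe41 (-0.50) and Hlf (-0.46). Over the 36 pairs of genes the median r was 0.24. These values are descriptions, since all genes of a library share its preparation and depth. In periportal 8 h hepatocytes, Ciart and Usp2 had the same order of libraries: replicate 1 was lowest (0.444 and 8.64 CPM), replicate 2 between (1.82 and 31.3 CPM) and replicate 3 highest (3.96 and 39.8 CPM). Nfil3 had the reverse order there, at 69.3, 59.2 and 47.5 CPM. Periportal 24 h replicate 3 had the highest Nfil3 of its group (63.2 CPM) with the lowest Dbp, Tef, Hlf, Ciart and Usp2.

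**Figure D3:**
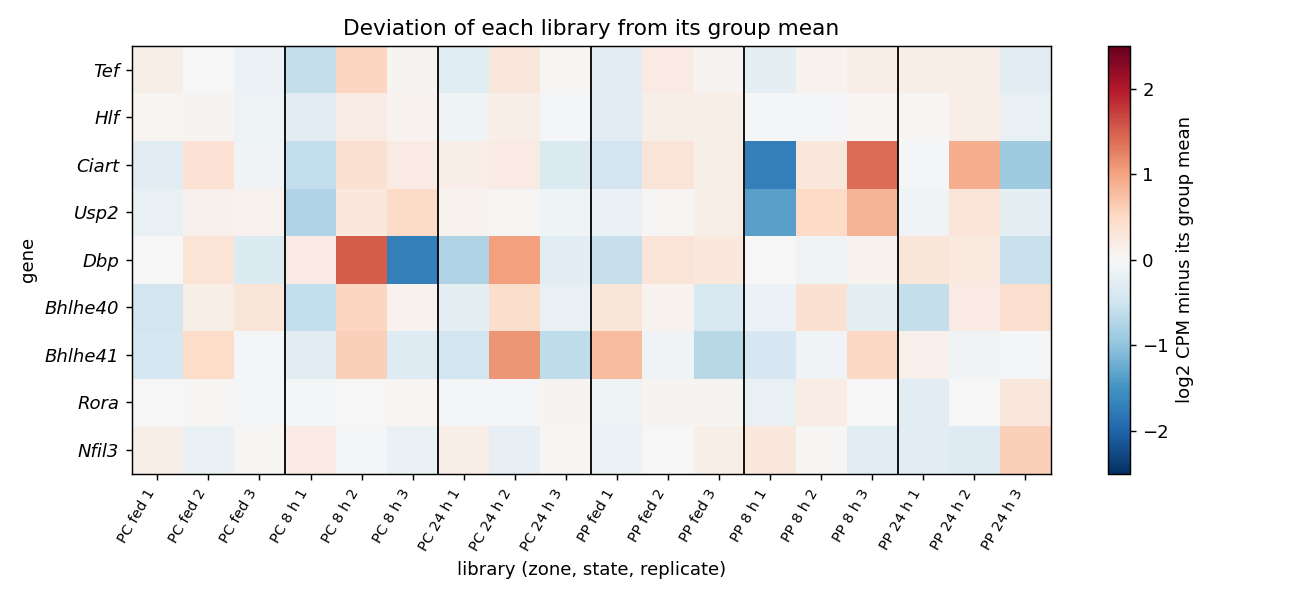
Log2 CPM of each gene minus the mean of its group, for all 18 libraries (columns, ordered by zone, state and replicate; lines separate groups); red is above and blue below the group mean. Ciart and Usp2 are low together in periportal 8 h replicate 1, and Nfil3 is high in periportal 24 h replicate 3, where Tef, Hlf and Ciart are low.

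The 3 genes most like each member were sought among 8002 other genes by Pearson's r of log2 CPM over the 18 libraries, which include the differences between groups. Clock genes were among the nearest to the PAR bZIP genes: Nr1d2, a REV-ERB gene, with Dbp (r = 0.925), Tef (0.968) and Hlf (0.901), Per3 with Tef (0.944) and Hlf (0.935), and Wee1, a cell cycle kinase gene under clock control, with Tef (0.947) and Hlf (0.945). Dbp was also near Chn2 (0.933) and Tcp1 (0.916). Nfil3 was nearest to Pnrc1 (0.971), Ccng2 (0.964) and Cpeb2 (0.958), and 3.16% of the genes searched exceeded 0.8 with it. Ciart was nearest to Map2k6 (0.934), Tmem126a (0.910) and Mrpl24 (0.899), and Bhlhe40 to Tcaim (0.905), Fkbp4 (0.904) and Fam47e (0.902). Rora was nearest to Klhl3 (0.932), G6pc (0.930), the glucose-6-phosphatase gene, and Klf11 (0.916). Slc16a5 (0.870) and Mrps21 (0.866) were among the 3 nearest to Usp2, and Bhlhe41 had no gene above 0.699 (Copb2).

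The core clock loop, from which these outputs are driven, was read from a list of 11 genes. At 8 h against fed, 5 of 11 were called in pericentral hepatocytes, 2 higher and 3 lower (13.8% of all genes were called). In periportal hepatocytes 6 were called, 2 higher and 4 lower (14.4% of all genes). Without the library with low Glul the counts were 7 and 8 (1770 and 1816 of 12733 genes). Clock (1.14 and 1.18) and Cry1 (0.88 and 0.86) were then called higher. Over all alternatives the counts ran from 5 to 7 and from 5 to 9. Npas2 and Arntl, which encode the activators NPAS2 and BMAL1, rose in pericentral and periportal hepatocytes, with log2 fold changes of 5.09 and 6.83 for Npas2 and 2.70 and 2.61 for Arntl. Per2 and Per3, which encode repressors of these activators, fell, with log2 fold changes of -3.96 and -3.51 for Per2 and -3.34 and -3.65 for Per3. The edgeR adjusted p of these 4 genes ranged from 1.16e-09 to 0.000238. Npas2 was near 0 in fed libraries (0.0367 to 0.207 CPM), so the size of its rise is uncertain. At 24 h against fed, 3 of 11 were called in pericentral (2 higher, 1 lower; 21.8% of all genes) and 4 in periportal hepatocytes (1 higher, 3 lower; 19.6% of all genes). Per2 was below fed in both zones (-1.60 and -1.22) and Per1 above it (0.73 and 1.04). Nr1d2 was above fed in pericentral hepatocytes (0.59, not called without the library with low Glul, at 0.50, or under 5 other alternatives), and Per3 was below it in periportal ones (-1.07), while Dbp, Tef and Hlf were not called in either. The list's median was -0.41 and -0.58 at 8 h and 0.29 and 0.12 at 24 h, against -1.03, -1.08, 0.47 and 0.11 for the 9 output and accessory genes. Between 8 h and 24 h, 8 of the 11 were called in pericentral (6 higher, 2 lower; 9.71% of all genes) and 6 in periportal hepatocytes (4 higher, 2 lower; 7.46% of all genes). Without the library with low Glul these counts were 6 and 8 (731 and 877 of 12733 genes). Of the pericentral calls, Nr1d1 and Cry2 were also lost with that library kept. With only the groups compared they were 1.32 (edgeR adjusted p 0.136) and 0.61 (edgeR adjusted p 0.147). Nr1d1 was lost under limma-voom too (1.19, adjusted p 0.0733), and both were lost when some other single libraries were left out. Between the zones the test of edgeR called 0 of the 11 in each state, and leaving out a library gave 0 to 1 at 8 h and at 24 h. With all libraries kept, Per3 at 24 h was called lower in periportal hepatocytes by DESeq2 (-0.88, adjusted p 0.0153) and by limma-voom (-0.87, adjusted p 0.048). It was also called with the replicate number as a block (-0.86, edgeR adjusted p 0.0496) and with a filter of at least 1 CPM on average (-0.88, edgeR adjusted p 0.0493).

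**Figure D4:**
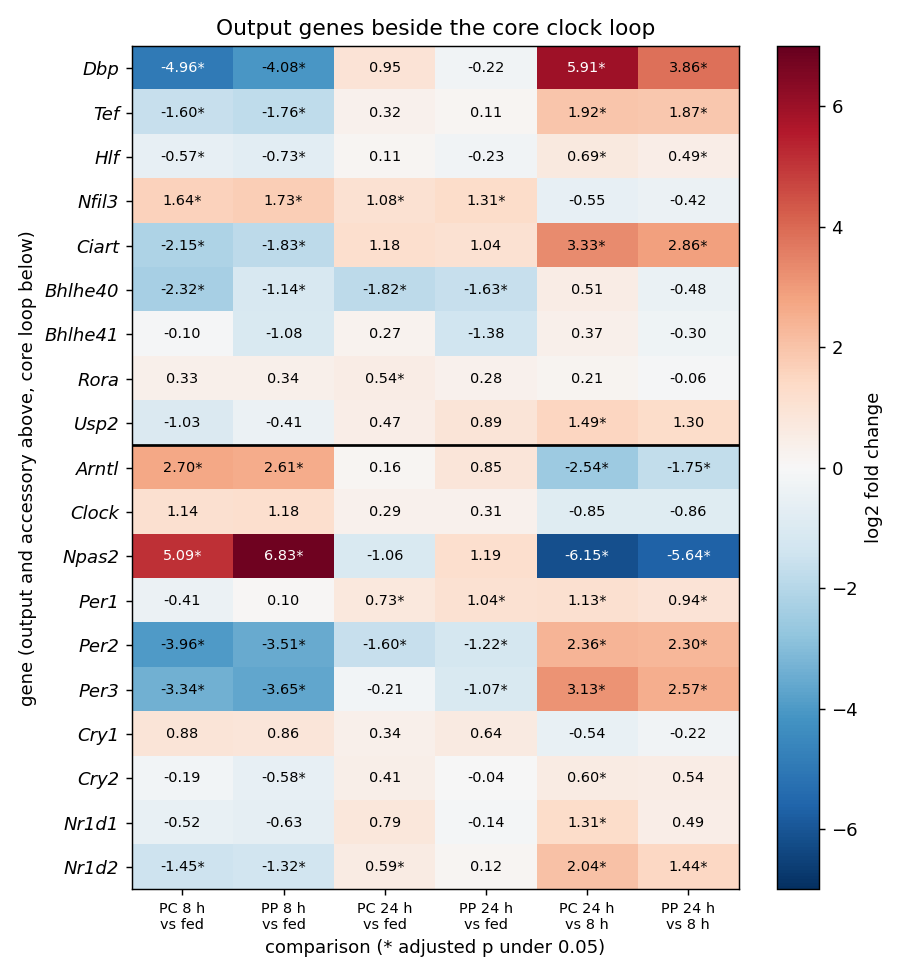
Log2 fold changes of the 9 output and accessory genes (above the line) and 10 of the 11 core loop genes (below) in 6 comparisons between states, with an asterisk for an adjusted p under 0.05. Npas2 and Arntl rise at 8 h where Dbp, Per2 and Per3 fall, and Nfil3, Bhlhe40 and Per2 keep a difference from fed at 24 h in both zones.

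Of 11 genes for clock kinases, ubiquitin ligases and cofactors, 2 were called at 8 h against fed in each zone, both higher, where 13.8% (pericentral) and 14.4% (periportal) of all genes were called. At 24 h 4 were called in pericentral (3 higher, 1 lower; 21.8% of all genes) and 2 in periportal hepatocytes (both higher; 19.6% of all genes). The periportal counts and the pericentral 8 h count are near these shares of all genes. Csnk1d, a kinase of the PER proteins, was called higher in these 4 comparisons, by 0.46 and 0.45 at 8 h and 0.28 and 0.40 at 24 h. Its pericentral 24 h call was lost without a filter on low counts, with only the groups compared, with scaling without the 20 most abundant genes, and without pericentral fed replicate 1 or 2 or 24 h replicate 1 or 3 (0.21 to 0.30). Sirt1, the deacetylase, rose by 0.61 at 8 h in periportal hepatocytes and by 0.75 and 0.56 at 24 h in pericentral and periportal ones. Its periportal calls were lost without periportal fed replicate 1 (0.53 at 8 h and 0.48 at 24 h), and that at 24 h also without periportal 24 h replicate 3 (0.35), with scaling without the 20 most abundant genes (0.44) and with only the groups compared (0.57). Fbxl21, a ligase gene for the CRY proteins, fell by 1.24 at 24 h in pericentral hepatocytes (SE 0.32, edgeR adjusted p 0.0107), from a fed mean of 4.52 CPM.

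Of 7 genes reported as targets of the PAR bZIP factors in liver, 1 was called at 8 h against fed in pericentral hepatocytes (lower; 13.8% of all genes were called) and 2 in periportal ones (1 higher, 1 lower; 14.4% of all genes), so the pericentral count is at the background. The lower gene was Alas1, the first enzyme of heme synthesis, which fell 4.01-fold in pericentral (SE 0.44 on the log2 scale, edgeR adjusted p 0.00776) and 3.44-fold in periportal hepatocytes (SE 0.44, edgeR adjusted p 0.015). Its pericentral log2 change was -2.69 without pericentral 8 h replicate 3 and lost its call with only the groups compared (edgeR adjusted p 0.0577). Its periportal call was lost without periportal fed replicate 1 (-1.66, edgeR adjusted p 0.0533). Cyp2b10 was higher in periportal hepatocytes by 3.94 (SE 0.98, edgeR adjusted p 0.0164), with 5.57 to 167 CPM over its 3 libraries. That call was lost under limma-voom (2.93), with only the groups compared (3.94), and without any 1 of the periportal fed libraries or periportal 8 h replicate 3 (3.25 to 4.09). At 24 h against fed, 2 of 7 were called in pericentral (both higher; 21.8% of all genes) and 3 in periportal hepatocytes (all 3 higher; 19.6% of all genes). Por, the electron donor of cytochromes P450, rose by 1.5 and 1.94, Ppara by 0.96 and 0.84, and Nr1i3, the gene of the receptor CAR, by 1.31 in periportal hepatocytes. These 5 calls were kept under every alternative. The medians of the 7 genes were -0.24 and 0.32 at 8 h and -0.17 and 0.38 at 24 h.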

How the data were processed

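RNA of 18 libraries (3 in each of 6 groups) was analysed from 1 deposited table of estimated counts per gene. Per the submitters' processing notes, kallisto 0.46.0 and the build mm10 were used. The annotation, the step from transcripts to genes and the use of strand are not given in the sources used here. Of the deposited values, 67.5% to 70.5% per library were whole within 1e-09. They were rounded before testing, and gene names could be matched to 27566 of the 28030 identifiers. Each column name equalled the description of 1 library. Coordinates are from GENCODE M21 (GRCm38, the same assembly as mm10), and promoter sequences from RefSeq on GRCm38.p6. Some genes on the opposite strand share exonic bases with members (Sphk2 with Dbp, 539 bases, and others with Tef, Bhlhe40, Bhlhe41, Rora and Usp2). Whether their reads were separated by strand is not known, since no use of strand is recorded.

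Testing used edgeR 4.0.16 in R 4.3.3 (robust quasi-likelihood F test, TMM scaling, filterByExpr). All 18 libraries entered 1 fit with a coefficient per group, and 12 contrasts were adjusted over 12477 genes. SE is the log2 fold change divided by the square root of F, and intervals are 95%. CPM used the TMM factors. Alternatives were DESeq2 1.42.0 (size factors, Wald test), limma-voom (limma 3.58.1), other filters and scaling, the replicate number as a block, only the groups compared, and leaving out each library. For the genes of the lists they were added after seeing the data. The test was checked on simulated data. Named were the 9 members, the 3 most correlated genes of each (at least 5 CPM), and up to 4 called genes per list with the largest change. Some values of genes that are no members are not reported here. The members and lists were chosen with earlier results of these data known. Depth was 18359911 to 26384358 counts per library, and 3 libraries per group limit the precision.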

Additional observations from a re-analysis of the deposited data

How the results depend on the processing

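Of the 2808 fold changes of the 9 genes under 26 alternatives, 2720 kept their call, 46 lost it, 42 gained it and 0 reversed with a call. A further 69 of them changed sign with no call on either side. Of 108 pairs of gene and comparison, 88 had the same call under every alternative. The counts of members called moved by more than 1.5 times as follows. With only the groups compared, 5 members were called between 24 h and fed in pericentral hepatocytes (2298 of 11658 genes tested). In periportal hepatocytes 4 were called (2193 of 11738 genes). Between the zones 1 was called in fed mice (1150 of 11736 genes) and 0 at 8 h (450 of 11575 genes). By DESeq2 1 was called between the zones in fed mice (1315 of 12477 genes) and 2 at 8 h (1275 genes). The main test called 1000 and 891 of all genes there. Scaling without the 20 most abundant genes gave 1 in fed mice (912 of 12477 genes), and no filter beyond 1 count gave 0 at 8 h (751 of 20481 genes). Leaving out a library gave 0 to 1 between the zones in fed mice and 0 to 2 at 8 h. Over all genes it gave 614 to 1108 and 525 to 1144. The cause of these shifts was not tested.

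The replicate number as a block gave 1 gene between the zones in fed mice and 2 at 8 h, in place of 0 and 1. Over all 12477 genes it gave 1036 and 959, in place of 1000 and 891. Among the members the replicate block changed 6 calls, all gained: Rora between 8 h and fed in pericentral (0.33, edgeR adjusted p 0.0475) and periportal hepatocytes (0.34, adjusted p 0.0399), Rora between the zones when fed (0.38, adjusted p 0.0353) and at 8 h (0.39, adjusted p 0.0325), Bhlhe41 between 24 h and fed (-1.38, adjusted p 0.0485) and Usp2 between 8 h and 24 h (1.41, adjusted p 0.0354) in periportal hepatocytes. The labels do not say that a number marks a shared mouse or day. Deviations from the group means correlated across genes between same-numbered libraries with r from -0.073 to 0.208, and all 3 numbers exceeded 0.1 in 1 of 15 pairs of groups. That pair was the pericentral and periportal 24 h groups (0.12 to 0.135). Among 90 pairs of a library and another group, the own number, 1 of 3, correlated best in 47. Of the 18 libraries, 1 correlated best with its own number in every other group. Depth limited Dbp at 8 h (3 to 29 counts) and Bhlhe41 (24 to 123 counts).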
